A study of Mus musculus with 2 samples.

Results

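The cytosolic ribosomal protein genes encode the proteins of the 2 ribosomal subunits. They were taken as the protein-coding GENCODE vM21 genes whose symbol is Rpl or Rps with a number and an optional a, x or y, together with Rplp0, Rplp1, Rplp2 and Rpsa. Ribosomal S6 kinase genes (Rps6k) and copies with an l after the number were left out. The rule found 76 genes among 21853 protein-coding genes, 30 of the small subunit and 46 of the large subunit, on 19 chromosomes. The rule itself uses names only, not measured values.

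Open chromatin was mapped by DNase-seq, which sequences DNA ends made where the enzyme DNase I cuts accessible DNA. The tissue was liver of mouse embryos at day 13.5, strain C57BL/6N,129, and every sample is labelled with an LCR deletion and with a HET globin mutation. The 2 libraries, biological replicates 1 and 2, make up 1 group without a control. They came from separate biosamples with a shared donor identifier, and sex was not collected. The labels do not spell out LCR or HET globin mutation, and the sources used here do not give the extent of the deletion or the genotype of a single embryo. With 1 group, no effect of the genotype could be tested, and every result is a description of these libraries.

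A ribosome holds 1 copy of nearly every ribosomal protein, so a cell must make them in matched amounts, and their genes are among the most actively transcribed in dividing cells. The small subunit decodes the messenger RNA, and the large subunit joins amino acids. Their messenger RNAs begin in a run of pyrimidines (C and T), which lets the mTOR pathway and LARP1 control their translation together. Fetal liver at this stage is the main site of red cell formation, and loss of 1 working copy of several of these genes causes Diamond-Blackfan anaemia in humans, a failure of red cell production.

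The promoter of Rplp0, which had the highest peak of the family, and that of Rpl6, which had the lowest, are shown from 150 bases before to 30 bases after the start of the curated RefSeq mRNA, called the main start below. Both are on the plus strand of mm10, at chr5:115559317-115559496 for Rplp0 and chr5:121204351-121204530 for Rpl6. Capitals mark bases inside a footprint of replicate 1, a short stretch that the authors listed as protected from cutting.
Rplp0: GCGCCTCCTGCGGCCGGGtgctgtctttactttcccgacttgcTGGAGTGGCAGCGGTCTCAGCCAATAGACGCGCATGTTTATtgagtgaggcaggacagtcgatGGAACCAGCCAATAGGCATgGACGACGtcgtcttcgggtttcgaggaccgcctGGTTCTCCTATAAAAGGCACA
Rpl6: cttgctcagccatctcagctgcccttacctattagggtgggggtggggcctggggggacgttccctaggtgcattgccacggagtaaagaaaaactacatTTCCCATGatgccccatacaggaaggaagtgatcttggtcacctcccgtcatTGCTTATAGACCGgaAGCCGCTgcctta

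The Rplp0 window held 5 footprints in replicate 1 and 5 in replicate 2, at nearly the same places. One ran from -107 to -67 in replicate 1 and from -104 to -69 in replicate 2, and it covered a CCAAT word that begins at -87. Another ran from -44 to -26 in replicate 1 and from -44 to -32 in replicate 2, over a second CCAAT word at -36. The footprint from 10 to 34 in replicate 1, and from 12 to 33 in replicate 2, covered TATAAA at 18. The Rpl6 window held 3 footprints in replicate 1 and 1 in replicate 2. The one listed in both ran from 18 to 24, at the end of the ETS word CCGGAAG that begins at 13.

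A pyrimidine start was measured as the unbroken run of C and T that touches the 5 bases either side of the main start. The run had 8 or more bases in 25 of the 76 ribosomal genes (32.9%), against 9.38% of the 11602 protein-coding genes with a promoter peak in both libraries. Those 11602 genes, called open genes below, include the ribosomal ones. A pyrimidine, C and T stood in a row with the C as the first base of the mRNA in 16 ribosomal genes (21.1%), against 3.29% of open genes. Of the longest such starts, 6 are shown over 15 bases on each side, with the run in capitals, on mm10. They lie at chr2:39005117-39005146 (Rpl35, minus strand), chr14:18270972-18271001 (Rpl15, minus), chr6:115808729-115808758 (Rpl32, minus), chr9:120571502-120571531 (Rpl14, plus), chr15:34443211-34443240 (Rpl30, minus) and chr17:27635230-27635259 (Rps10, minus).
Rpl35: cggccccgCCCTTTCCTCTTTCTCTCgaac
Rpl15: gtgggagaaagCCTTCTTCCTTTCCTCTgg
Rpl32: cgccgccgCCTCTTCCTTCTTCCTCggcgc
Rpl14: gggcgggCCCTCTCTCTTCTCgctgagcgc
Rpl30: gcattgtgggagCTCCTTCCTTTCTCgctc
Rps10: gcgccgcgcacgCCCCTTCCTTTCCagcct

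The main start is an annotated position and was not measured here. Within 50 bases before to 100 bases after it, a run of 8 or more pyrimidines was found in 70 ribosomal genes (92.1%), against 41.5% of open genes, and the median longest run was 11.5 against 7 bases. Genes with a run at the main start had lower medians of peak height than the rest. Their median highest promoter peak was 7.27 in replicate 1 and 5.16 in replicate 2 (25 genes), against 9.22 and 5.53 in the other 51 genes.

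Every ribosomal gene was open. All 76 had a promoter peak, one that overlaps the 1000 bases either side of a start of the gene, in both libraries, against 53.1% of all protein-coding genes (57.5% in replicate 1 and 54.3% in replicate 2). The value of a peak is the read-depth normalised signal that the authors deposited. The highest promoter peak of a ribosomal gene had a median value of 8.02 in replicate 1 (range 2.24 to 22.4) and 5.50 in replicate 2 (range 2.13 to 10.8). Open genes had medians of 5.83 and 3.71. Ranked among all peaks of its library, the median ribosomal gene stood at percentile 91.0 in replicate 1 and 92.2 in replicate 2, against 86.8 and 83.3 for open genes. In bulk tissue, a peak in more cells and more cutting per cell cannot be told apart.

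**Figure D1:**
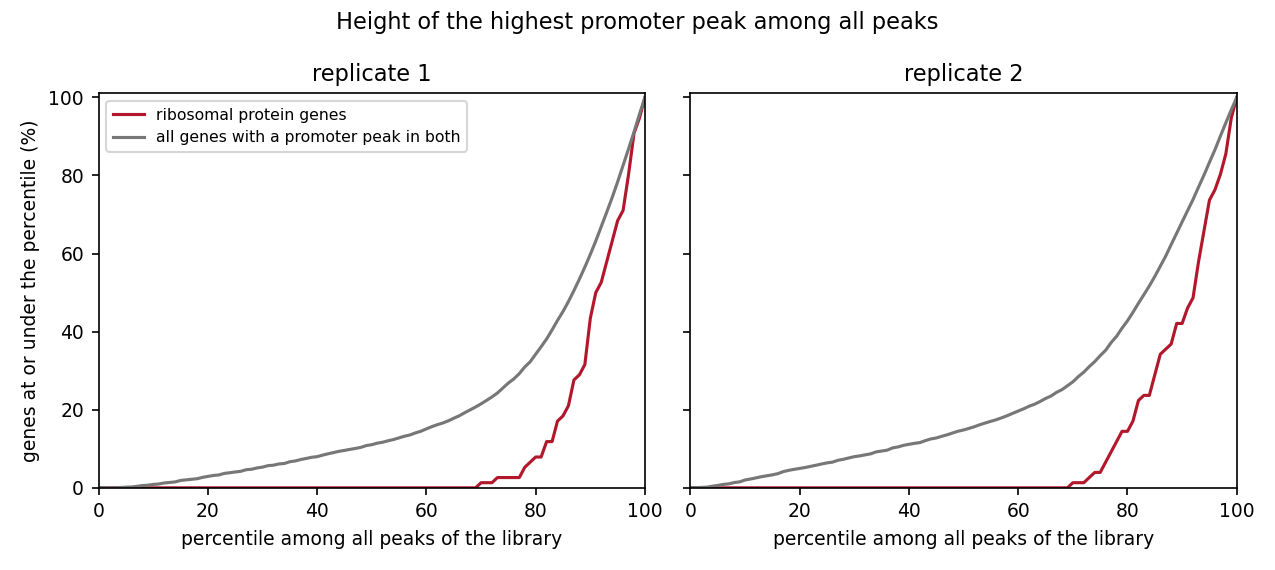
Share of genes (y axis, %) whose highest promoter peak lies at or under a given percentile of all peaks of the library (x axis), for the 76 ribosomal protein genes in red and all 11602 open genes in grey, with a panel for each replicate. The red line stays at 0 up to the 69th percentile in both panels, whereas the grey line rises from the low percentiles on.

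The family lacked low peaks and was above the 90th percentile more often than open genes, though the highest peaks of open genes lay outside it. The lowest ribosomal gene stood at percentile 69.9 in replicate 1 and 69.7 in replicate 2. All 76 thus lay above the 50th percentile, as did 89.0% of open genes in replicate 1 and 85.2% in replicate 2. Above the 90th percentile were 43 ribosomal genes in replicate 1 (56.6%) and 44 in replicate 2 (57.9%), against 40.2% and 31.9% of open genes. The highest value of any open gene was 57.3 in replicate 1 and 26.7 in replicate 2, and no ribosomal gene passed 22.4 and 10.8.

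**Figure D2:**
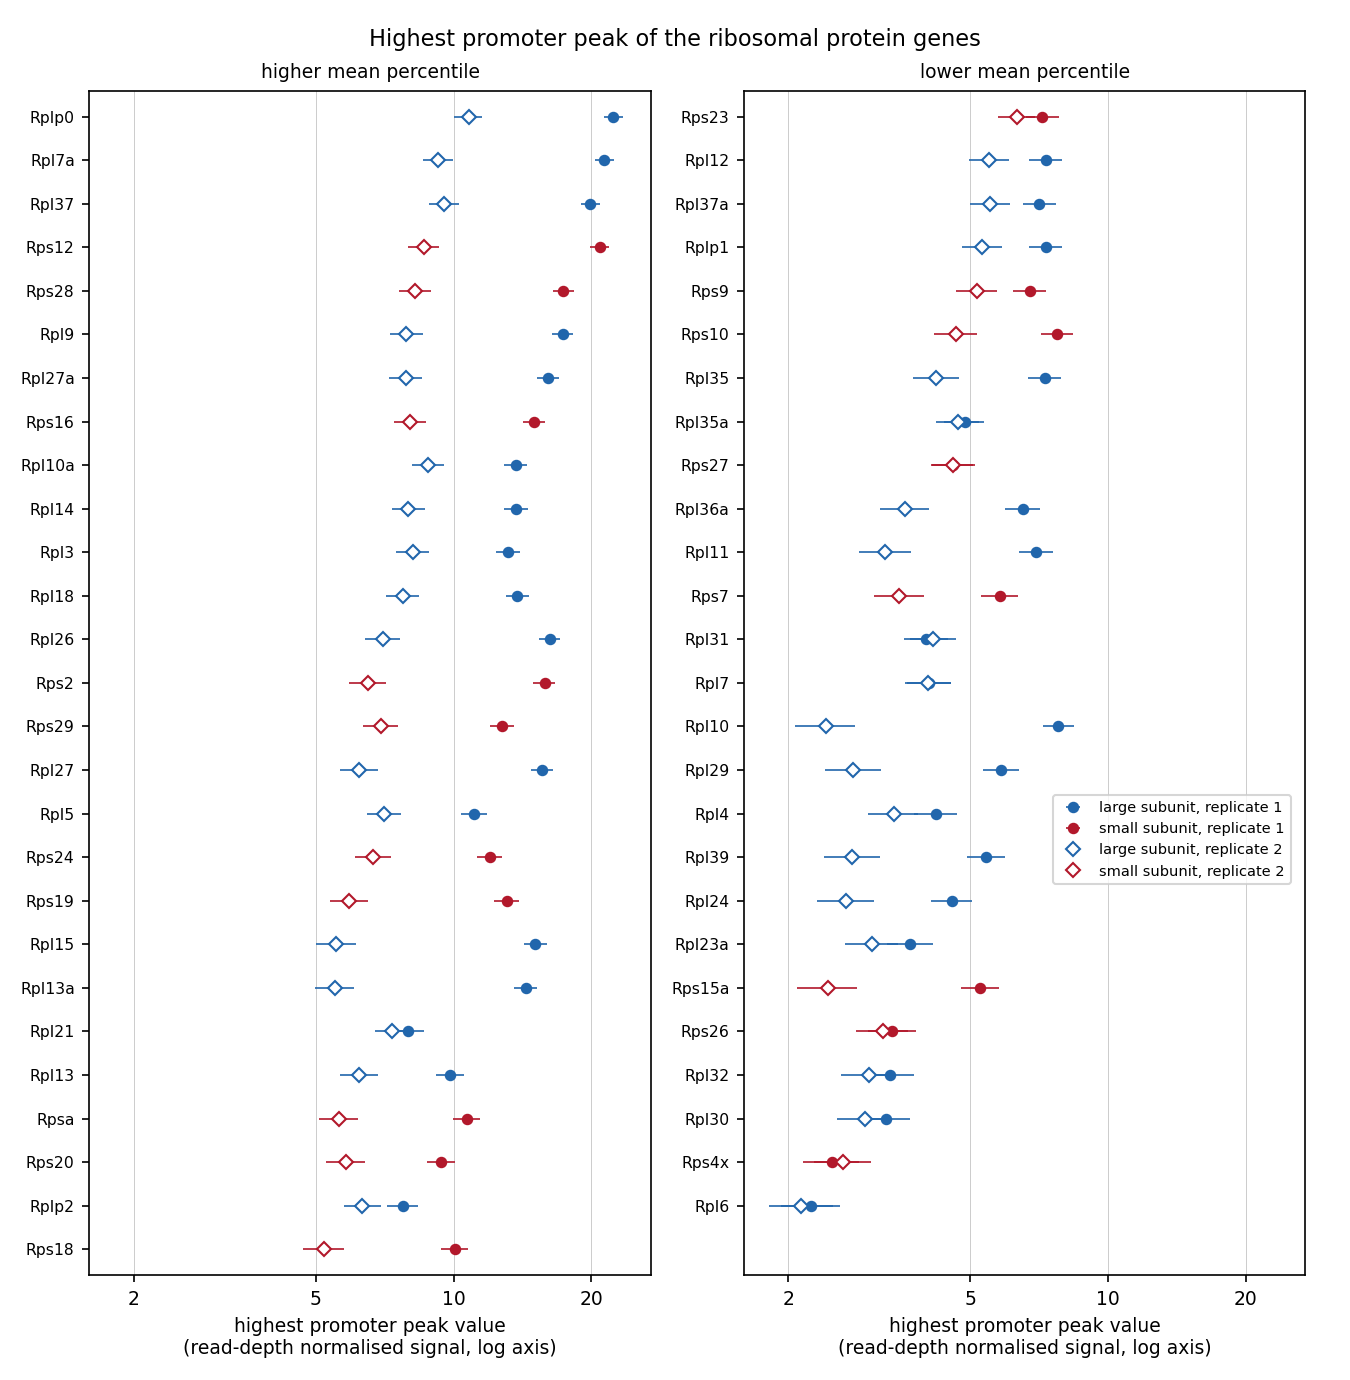
Highest promoter peak value of 53 of the 76 genes, those named in the text (x axis, read-depth normalised signal on a log axis), ordered by mean percentile over 2 panels, with replicate 1 filled and replicate 2 open, and large subunit genes blue and small subunit genes red. Bars are 95% Poisson intervals that assume that 1 step of the value is 1 read. Values run from 22.4 in replicate 1 for Rplp0 to 2.13 in replicate 2 for Rpl6, and most open symbols lie left of the filled ones.

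Rplp0, the scaffold of the ribosomal stalk that recruits elongation factors, led the family with 22.4 in replicate 1 (95% Poisson interval 21.3 to 23.4) and 10.8 in replicate 2 (10.04 to 11.6). These intervals cover counting error only and rest on the reading that 1 step of the value is 1 read. Its peak spanned chr5:115559281-115559520 in replicate 1 and chr5:115559281-115559540 in replicate 2, over the main start at 115559467. Rplp1 and Rplp2, the acidic stalk proteins bound to Rplp0, were lower, with 7.31 and 7.74 in replicate 1 and 5.31 and 6.32 in replicate 2. Rpl12, at the base of the stalk, had 7.31 in replicate 1 and 5.50 in replicate 2. Rpsa, a surface protein of the small subunit, had 10.7 in replicate 1 and 5.61 in replicate 2. Rpl10, which is added late and shapes the peptide-joining centre, had 7.79 in replicate 1 and only 2.41 in replicate 2. The stalk genes were thus open to unequal degrees although their products assemble together, and Rplp0 lay above the others in both libraries.

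Next in rank by mean percentile came Rpl7a with 21.4 in replicate 1 and 9.25 in replicate 2, Rpl37 with 19.9 and 9.54, and Rps12 with 20.9 and 8.61. They were followed by Rps28 with 17.4 in replicate 1 and 8.23 in replicate 2, Rpl9 with 17.3 and 7.89, Rpl27a with 16.1 and 7.87, and Rps16 with 14.98 and 8.04. The order differed between libraries below Rplp0. Rpl10a, chosen after its values were seen, had 13.7 in replicate 1 and 8.80 in replicate 2, above Rps12 in replicate 2 only. The start of Med22 faces away from that of Rpl7a at 130 bases, Ndufa7 from Rps28 at 10 bases and Lias from Rpl9 at 66 bases. The signal between such starts cannot be assigned to one of the paired genes.

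At the low end, Rpl6 had 2.24 in replicate 1 (95% interval 1.93 to 2.59) and 2.13 in replicate 2 (1.81 to 2.50), with peaks at chr5:121204401-121204800 and chr5:121204381-121204980. Rps4x had 2.49 in replicate 1 and 2.63 in replicate 2. Rpl30 had 3.27 in replicate 1 and 2.94 in replicate 2, Rpl32 3.34 and 2.99, and Rps26 3.38 and 3.22. Rpl23a had 3.70 in replicate 1 and 3.05 in replicate 2, Rps15a 5.25 and 2.44, and Rpl24 4.55 and 2.68. These genes were picked as the lowest by these same values, which are given as a description.

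The medians of the subunits differed little beside the range within each. Small subunit genes had a median of 9.31 in replicate 1 and 5.68 in replicate 2 (30 genes), and large subunit genes had 7.76 and 5.25 (46 genes). The ranges overlapped almost wholly, from 2.49 to 20.9 for the small and from 2.24 to 22.4 for the large subunit in replicate 1. No test was made, since genes are not replicates.

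Genes that cause or have been linked to Diamond-Blackfan anaemia in humans spanned the range of the family. In the small subunit, Rps19, the gene most often affected in patients, had 13.1 in replicate 1 and 5.92 in replicate 2. Rps28 was the highest of these 10 at 17.4 in replicate 1 and 8.23 in replicate 2. Rps29 had 12.8 in replicate 1 and 6.93 in replicate 2, Rps24 12.0 and 6.68, and Rps10 7.74 and 4.64. Lower values were found for Rps7, with 5.79 in replicate 1 and 3.49 in replicate 2, Rps27, with 4.57 and 4.59, and for Rps15a and Rps26, given above. In the large subunit, Rpl5, which with Rpl11 binds and holds back Mdm2 when ribosome assembly fails, had 11.1 in replicate 1 and 7.06 in replicate 2. Rpl11 itself had 6.96 in replicate 1 and 3.26 in replicate 2.

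Among the other large subunit genes of that list, Rpl26 had 16.2 in replicate 1 and 7.01 in replicate 2, Rpl27 15.6 and 6.22, Rpl15 15.1 and 5.54, and Rpl18 13.8 and 7.75. Rpl35 had 7.27 in replicate 1 and 4.21 in replicate 2, Rpl35a 4.85 and 4.70, and Rpl31 4.005 and 4.14. Over all 19 disease-linked genes, the median was 10.6 in replicate 1 and 5.54 in replicate 2, against 7.97 and 5.50 in the other 57 ribosomal genes. In both libraries these genes ran from Rps28, among the highest of the family, to Rps26, among the lowest in replicate 1, and Rps15a, among the lowest in replicate 2.

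The X chromosome holds 4 of the genes, and they were in the lower part of the family. Rpl10 had 7.79 in replicate 1 and 2.41 in replicate 2, Rpl36a 6.51 and 3.59, Rpl39 5.42 and 2.76, and Rps4x 2.49 and 2.63. Their median was 5.96 in replicate 1 and 2.70 in replicate 2, against 8.82 and 5.52 for the 72 other ribosomal genes. X-linked open genes were lower as well, with medians of 3.04 and 1.78 in replicates 1 and 2 (352 genes), against 5.98 and 3.798 for the 11250 open genes not on X. Sex was not collected, and its part in these values was not tested.

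Many ribosomal genes carry small nucleolar RNAs, guides of ribosomal RNA modification, in their introns. GENCODE places at least 1 such RNA inside 29 of the 76 genes (38.2%), against 203 open genes (1.75%). Rpl4 holds 5 and Rpl13a holds 4 (chosen after these counts were seen). The 29 host genes had a median highest promoter peak of 9.82 in replicate 1 and 5.81 in replicate 2, against 7.27 and 5.20 in the other 47. Rpl13a had 14.4 in replicate 1 and 5.50 in replicate 2, while Rpl4 had 4.20 and 3.40, so that hosts of many such RNAs had both high and low peaks. The highest peak of Rpl4 lies 375 bases from its nearest start, beyond the start of Zwilch, which faces away at 283 bases. Over its main start, Rpl4 had a peak of 2.43 in replicate 1 and none in replicate 2.

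A start of another protein-coding gene faces away within 1000 bases in 11 ribosomal genes (14.5%), against 15.2% of open genes. The pairs range from Rps28 and Ndufa7 at 10 bases to Rpl35a and Iqcg at 324 bases. The family was near all open genes in this respect.

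Ribosomal genes had a single promoter peak more often than open genes did. One promoter peak was found in 46 of 76 genes (60.5%) in replicate 1 and in 47 (61.8%) in replicate 2, against 44.1% and 48.2% of open genes. A count of 3 or more was found in 6 genes (7.89%) in replicate 1 and 5 (6.58%) in replicate 2, against 22.0% and 19.5%. The median width of the highest promoter peak was 220 bases in replicate 1 (range 100 to 460) and 260 bases in replicate 2 (range 60 to 600), against 240 and 280 bases in open genes. Width was poorly repeated between libraries. The peak of Rpsa was 240 bases wide in replicate 1 and 60 in replicate 2. Across the 76 genes, Spearman's rho between libraries was 0.368 for width and 0.861 for value. Genes are not independent replicates, so these are descriptions.

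The highest peak contained a GENCODE start of the gene in 66 ribosomal genes in replicate 1 (86.8%) and 60 in replicate 2 (78.9%), against 73.7% and 75.4% of open genes. A peak lay over the main start in 69 ribosomal genes in replicate 1 (90.8%) and 64 in replicate 2 (84.2%), against 73.2% and 73.9% of open genes. One lay there in both libraries in 60 genes (23 small and 37 large subunit), against 35.0% of all protein-coding genes, open or not. The highest peaks of the 2 libraries overlapped in 72 genes (94.7%), against 94.3% of open genes. The exceptions were Rps19, Rps26, Rps15a and Rpl39, whose values in the 2 libraries thus come from different sites. Rps15a had only 1 promoter peak in each library, and that of replicate 2 did not lie over the main start.

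The table of the cleavage rate, in which the authors list a false discovery rate (FDR) below 0.05 along the genome, showed the family more uniformly. An FDR under 0.001 was listed at the main start of all 76 genes in both libraries, against 82.0% of open genes in replicate 1 and 79.6% in replicate 2. The least significant gene was Rpl23a in replicate 1, with a lowest FDR of 0.000235 in its peak, and Rpl6 in replicate 2, with 2.91e-06. From 200 to 300 bases downstream the mean share of genes with such an FDR was still 64.2% in replicate 1 and 80.8% in replicate 2, against 58.97% and 62.5% in open genes. Relative to its own maximum, which was higher in the ribosomal genes, the share fell off sooner downstream. It was at least 50% of its highest value from position -308 to 299 in replicate 1, against -318 to 388 in open genes. In replicate 2 it was so from -306 to 346, against -338 to 414.

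**Figure D3:**
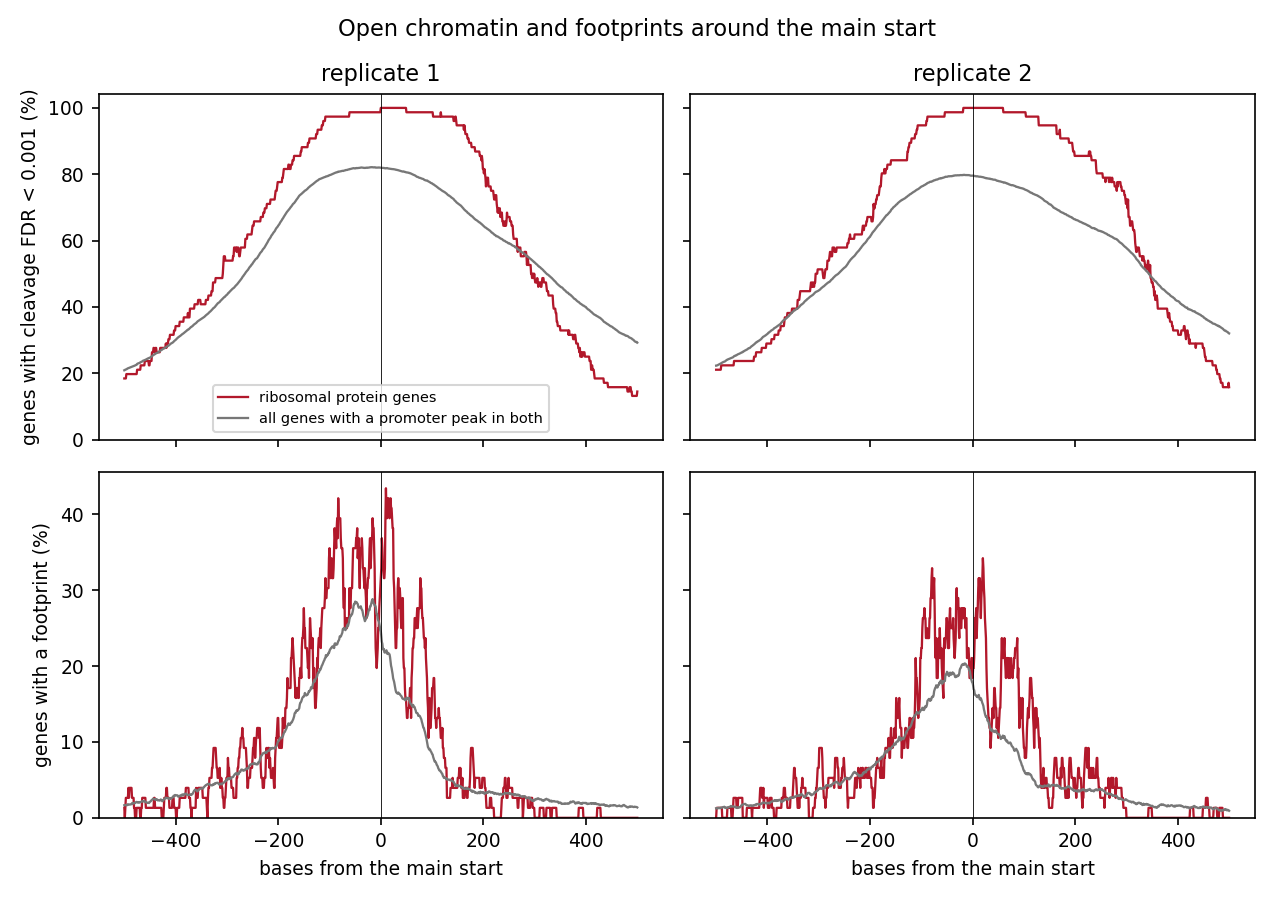
Share of genes (y axis, %) with a cleavage FDR under 0.001 (upper panels) and with a footprint (lower panels) at each base from 500 before to 500 after the main start (x axis), for the 76 ribosomal protein genes in red and all 11602 open genes in grey. The red FDR line reaches 100% at the start in both replicates, and the red footprint line peaks just downstream of it, at 43.4% and 34.2%.

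Footprints were listed in a promoter peak of all 76 ribosomal genes in both libraries, against 50% of all protein-coding genes. Most open genes had one too, 10924 of 11602. The median number per gene was 5 in both libraries, and it was 5 in open genes as well. Rpl7 had the most, with 25 in replicate 1 and 18 in replicate 2 over 7 and 4 promoter peaks. Rps19 had 13 in replicate 1 and 8 in replicate 2, Rpl18 12 and 8, Rps18 8 and 11, and Rpl10 7 and 11. Rplp2, Rpl37a and Rps12 tied with Rpl10 in their sum. The fewest were 2 in replicate 1 (as in Rpl7a) and 1 in replicate 2, in Rps7 and Rpl32.

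In open genes the number of footprints went with peak height, with Spearman's rho of 0.408 in replicate 1 and 0.528 in replicate 2 (11602 genes). In the ribosomal genes rho was -0.0137 in replicate 1 and 0.173 in replicate 2 (76 genes). Rpl7a, for example, had the second highest mean percentile and 2 footprints in each library. Peak height and footprints come from the same reads, and the range of heights is narrower in the family.

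Footprints were more frequent on both sides of the start than in open genes. Around the main start, the share of ribosomal genes with a footprint was highest 10 bases downstream in replicate 1 (43.4%) and 20 bases downstream in replicate 2 (34.2%). In open genes it was highest upstream, 16 bases before the start in replicate 1 (28.8%) and 15 bases before it in replicate 2 (20.3%). Over the 100 bases upstream, a ribosomal gene had a footprint at 32.4% of positions on average in replicate 1 and 24.4% in replicate 2, against 25.9% and 17.9% in open genes. Over the first 100 bases downstream, a ribosomal gene had a footprint at 26.1% of positions on average in replicate 1 and 19.7% in replicate 2, against 15.7% and 11.5% in open genes. In both sets the mean was thus higher upstream than downstream, although the single highest base lay downstream in the ribosomal genes. Over the 100 upstream bases, 98.2% of ribosomal genes on average had an FDR under 0.001 in replicate 1 and 98.0% in replicate 2. In open genes these shares were 81.5% and 78.8%, and the part of this difference in the footprint shares was not tested. Footprint positions are relative to the annotated start, which need not be where transcription begins.

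Promoter words were searched from 250 bases before to 50 after the main start, on both strands, as exact matches. A word met, or was in, a footprint when at least 1 of its bases overlapped one. None of the 12 words contains another, though matches can overlap in place. One of them was TCTCGCGA, a CpG-rich word that the zinc finger protein ZBTB33 can bind. It was found in 13 ribosomal genes (17.1%), against 2.46% of open genes and 1.41% of all 21853 genes. In 7 of the 13 it met a footprint in both libraries. Of these, 5 are shown over 30 bases on the strand of the gene, because the same word sits inside protected bases at different distances from the start. Capitals mark footprint bases of replicate 1. The mm10 positions are chr2:32961647-32961676 (Rpl12, plus strand), chr11:68901529-68901558 (Rpl26, plus), chr2:26910744-26910773 (Rpl7a, plus), chr7:24884573-24884602 (Rps19, plus) and chr17:33824545-33824574 (Rps28, minus).
Rpl12: GGGCCAGCGGTTCTCGCGAGAGCTGAGCtt
Rpl26: CGCTCCGAGACTCTCGCGAGATCTCGCggc
Rpl7a: AGGGCGCCTGCTCTCGCGATATCTGCGGcc
Rps19: GcACTCCGAAATCTCGCGAGACTCGAcgcc
Rps28: accgcgtGCGGTCTCGCGAGAGCGAAAGTG

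The word began at -92 in Rps19, at -52 in Rpl7a and at -1 in Rps28. Among all open genes with it, 76.1% had it in a footprint of replicate 1 and 57.2% in one of replicate 2, close to the 76.9% and 53.8% of the ribosomal genes with it. The family thus held the word more often, and the word met a footprint about as often as elsewhere.

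TATAAA, the core of the TATA box that positions the transcription machinery, was found in 9 ribosomal genes (11.8%), against 6.59% of open and 13.1% of all genes. It met a footprint in 6 of the 9 in replicate 1 and in 6 in replicate 2, and in 5 in both. Of the 765 open genes with it, 16.3% had it in a footprint of replicate 1 and 13.99% in one of replicate 2. The 5 are shown in the same way, since they share a place downstream of the main start, where the word began between 18 and 38. They lie at chr15:80083366-80083395 (Rpl3, minus strand), chr5:115559472-115559501 (Rplp0, plus), chr17:24720068-24720097 (Rps2, plus), chr4:3835613-3835642 (Rps20, minus) and chr17:33824508-33824537 (Rps28, minus).
Rpl3: CCATCACTTGGCTTTATatagcctgcactg
Rplp0: gcctGGTTCTCCTATAAAAGGCACACGCGg
Rps2: ttcttGGAGCACTATAAATTGTCCCTTCCG
Rps20: atGCGCACGTGCtttatAAGCGCCCGGCGC
Rps28: GTCAGAGCCGACTATAAAAGGCatcccctg

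In Rpl3 and Rps20 the word reads on the other strand, and in Rps20 a footprint of replicate 1 reached only 1 base of it. The positions of TATAAA are relative to the annotated main start, and whether transcription of these genes begins further downstream was not tested. Rps28 held both TATAAA and TCTCGCGA, and each met a footprint in both libraries. The cyclic AMP response word TGACGTCA, bound by CREB and ATF proteins, was found in 6 ribosomal genes (7.89%), against 3.77% of open and 2.53% of all genes. It met a footprint of both libraries in 5, at chr8:123102315-123102344 (Rpl13, plus strand), chr7:45717981-45718010 (Rpl18, plus), chr7:109519087-109519116 (Rpl27a, plus), chr12:69159232-69159261 (Rps29, minus) and chr7:3703973-3704002 (Rps9, plus). Of the open genes with the word, 79.9% had it in a footprint of replicate 1 and 70.5% in one of replicate 2, so that it met footprints often outside the family as well. The 5 are shown because the whole word lay in capitals in 4 of them.
Rpl13: gCGGGTTCGCGTGACGTCACTTCCCTTTCg
Rpl18: TCGcgcTCATGTGACGTCACCCGTGCACca
Rpl27a: GCCGGGAGCCGTGACGTCAggagcccttcc
Rps29: GCGGCGGGCCGTGAcgtcactcactgtgcc
Rps9: gcggTGCGTGATGACGTCACTACAAGgcGA

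Among the other words, one was more frequent than in open genes by more percentage points than those above, and others were less frequent. The ETS word CCGGAAG, bound by a large family of factors that includes GABPA, was found in 30 ribosomal genes (39.5%), against 19.7% of open and 11.7% of all genes. It met a footprint in 16 of the 30 in replicate 1 (53.3%) and 11 in replicate 2 (36.7%), against 50.1% and 40.3% of the open genes with it. GGGCGG, bound by SP and KLF factors, was less frequent than in open genes, in 45 ribosomal genes (59.2%), against 68.2% of open and 47.0% of all genes. CCAAT was found in 24 (31.6%), against 38.9% of open and 38.5% of all genes.

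Rarer words were near the open genes or rested on few genes. AAGATGGC, bound by YY1, was found in 6 ribosomal genes (7.89%), against 5.02% of open and 3.15% of all genes. ACTACAA, of ZNF143, was found in 6 (7.89%), against 4.44% of open and 3.73% of all genes, and in Rps9 above it overlaps the TGACGTCA word. GCGCATGC, of NRF1, was found in 5 (6.58%), against 5.70% of open and 3.79% of all genes. The E-box CACGTG, which MYC with MAX can bind, was found in 7 (9.21%), against 10.6% of open and 7.93% of all genes. It met a footprint in 3 of the 7 in replicate 1 and in none in replicate 2, against 35.7% and 26.1% of the open genes with it. AGATAA, of GATA factors, was found in 6 (7.89%), against 5.72% and 9.66%, and CAAAGTCCA, of HNF4, in 1 (1.32%), against 0.284% and 0.467%. A match is a description of letters in the window and does not show which protein was bound.

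**Figure D4:**
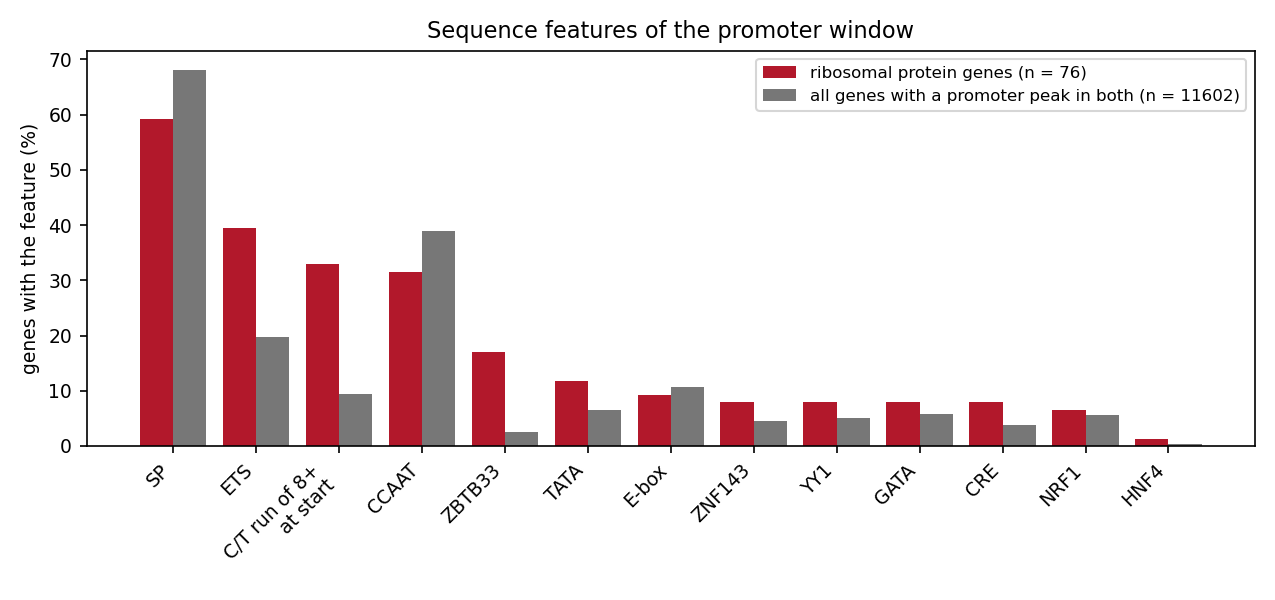
Share of genes (y axis, %) that hold each exact word from 250 bases before to 50 after the main start, or a run of 8 or more C and T at the start, for the 76 ribosomal protein genes in red and the 11602 open genes in grey. Ribosomal genes hold the ZBTB33 word in 17.1% against 2.46%, the pyrimidine run in 32.9% against 9.38%, and the SP word in 59.2% against 68.2%.

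Base composition was near that of open genes but not equal to it. The window had a median GC content of 57% in the ribosomal genes, against 61.7% in open genes, and a ratio of observed to expected CpG of 0.874, against 0.787. Reads can be lost where sequence is repeated, and ribosomal genes have many processed copies. Of 32-base words within 200 bases of the main start, a median of 2.70% occurred elsewhere in the genome, from 0% to 41.4% in Rpl37a. The share was 2.57% in the 8 lowest genes and 4.05% in the 8 highest. After the start alone it was 5.14% in the 8 lowest and 4.86% in the 8 highest. The part of repeated sequence in peak height was not tested. Lost reads were not counted in the files used here.

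The libraries differed in scale, and the ribosomal genes differed with them. The value of the highest promoter peak was lower in replicate 2 in 73 of 76 ribosomal genes (96.1%), against 90.7% of open genes. The 3 whose highest peak had a higher value in replicate 2 were Rps4x, Rpl31 and Rps27. To take out the library scale, the log2 ratio of replicate 2 over replicate 1 was set against the running median of the shared peaks that had a similar height, and the remainder is called the excess ratio. It was available for 71 genes, those with a promoter peak that overlaps 1 peak of the other library and no more. Its median was 0.19 (log2) in the ribosomal genes, with 48 of 71 above 0 (67.6%), against 0.02 and 52.4% in 10705 open genes. With 1 ratio per gene there is no replicate of this measure, and no test was made.

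**Figure D5:**
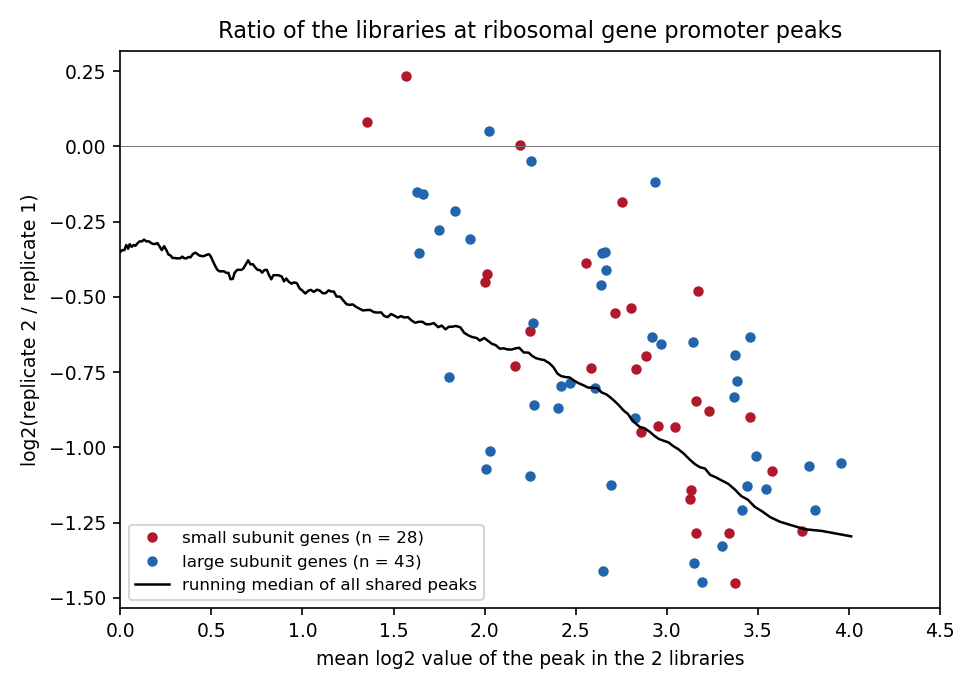
Log2 ratio of replicate 2 over replicate 1 (y axis) against the mean log2 value of the 2 libraries (x axis) for the promoter peaks of 28 small subunit genes in red and 43 large subunit genes in blue, with the running median of all 26687 shared peaks as a black line. The line falls with height, and 48 of the 71 points lie above it.

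The largest excess ratios were those of Rpl21 at 0.84, Rps26 at 0.80, Rpl31 at 0.71 and Rps23 at 0.68. That of Rps26 comes from a shared peak that was not its highest in replicate 1. This shared peak had 2.74 in replicate 1 and 3.22 in replicate 2, so it was higher in replicate 2. Rpl21 had 7.35 in replicate 2 and 7.97 in replicate 1, where peaks of its height were mostly lower in replicate 2. Low excess ratios were those of Rpl29 at -0.43, Rpl11 at -0.41 and Rpl15 at -0.38. The spread among these genes, from -0.43 to 0.84, was wide beside the median. X-linked open genes had a median excess ratio of -0.35, against 0.03 for the others, while Rps4x had 0.63, Rpl39 0.23 and Rpl36a -0.16. The ratio of Rpl39 also comes from a shared peak that was not its highest in replicate 1, with 3.52 in replicate 1 and 2.76 in replicate 2. Rpl10, the remaining X-linked ribosomal gene, had no excess ratio.

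The 4 listed ribosomal proteins whose genes have other names were open in both libraries. Fau, which encodes the small subunit protein eS30 fused to a ubiquitin-like part, had 17.2 in replicate 1 and 8.22 in replicate 2. Rps3a1, of the small subunit, had 14.8 in replicate 1 and 8.53 in replicate 2, and Rack1, a scaffold on the small subunit, had 4.20 and 4.30. Of 8 ribosomal protein-like copies that matched the annotation, 5 were open in both libraries. Rpl36al had 14.96 in replicate 1 and 7.71 in replicate 2, and Rpl22l1 13.9 and 6.29. Rpl3l, Rpl10l and Rpl39l had no promoter peak in either library, and Rpl3, Rpl10 and Rpl39 were open. Background knowledge places these copies mainly in muscle or testis.

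The listed genes for building or using ribosomes were open as well. Of 30 ribosome assembly factors, 30 had a promoter peak in both libraries, with a median value of 10.03 in replicate 1 and 4.98 in replicate 2. The highest by mean percentile were Nop56, a core protein of box C/D guide particles, with 22.3 in replicate 1 and 10.9 in replicate 2, and Npm1 with 19.2 and 8.39. Of 11 matched genes of RNA polymerase I, which makes ribosomal RNA, 11 were open, with medians of 8.42 and 4.59 in replicates 1 and 2. Their highest by mean percentile were Taf1d with 15.9 in replicate 1 and 7.53 in replicate 2, and Polr1d with 12.8 and 5.57. The peak of Taf1d lay over its main start, and Polr1d had no peak over its main start in either library.

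All 6 genes listed under elongation factors were open, with medians of 15.3 and 6.91 in replicates 1 and 2. By mean percentile over the libraries the highest were Eef2 with 15.8 and 7.83 and Eef1g with 17.6 and 7.18. All 30 genes listed under initiation factors, which include the binding protein gene Eif4ebp1, were open, with medians of 10.9 and 5.32. The highest mean percentiles were in Eif5a with 29.9 and 11.9 and Eif1 with 31.6 and 10.9. The lists do not hold every gene of their class. Of 10 listed genes that control ribosomal protein synthesis or are linked to ribosome production, 10 were open, with medians of 7.39 and 4.43. Their highest mean percentiles were those of Rps6kb1 with 18.2 and 6.39 and Trp53 with 14.2 and 6.97. Over the main start, Rps6kb1 had no peak in either library, and Trp53 had 6.54 in replicate 1 and 3.11 in replicate 2. Eif5a and Eif1 lay above every ribosomal protein gene in both libraries, Eif1 only narrowly above Rplp0 in replicate 2.

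Against these, marker genes of the 2 main cell groups of the tissue were mixed. Of 8 red cell markers, 7 were open in both libraries, with the highest mean percentiles in Epb41 with 33.0 in replicate 1 and 12.9 in replicate 2 and Tfrc with 18.1 and 7.46, and Alas2 had a promoter peak in replicate 1 only. Of 8 liver cell markers, 3 were open in both libraries, and the highest by mean percentile were Foxa3 with 9.41 in replicate 1 and 4.33 in replicate 2 and Cebpa with 3.06 and 2.16. Alb, Afp, Apoa2 and Hnf4a had no promoter peak in either library, and Apoa1 had one in replicate 1 only. The libraries as a whole held 47198 peaks in replicate 1 and 36523 in replicate 2, over 9.65 and 8.72 Mb, with 123897 and 94430 footprints.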

How the data were processed

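For each library, the authors deposited 2 peak lists, footprints and a cleavage-rate FDR table, made from that library's own alignments to mm10, per the record deposited with them. Neither the caller nor its cut-off is stated there. The longer peak list was used. The deposited signal of a peak is taken as read-depth normalised, as that record calls the library's signal track, and comes in whole multiples of 1 step, 0.0123 in replicate 1 and 0.0139 in replicate 2; 95% Poisson intervals assume that 1 step is 1 read. How the scale compares between libraries is not stated, so values stand side by side. The deposited FDR, an adjusted p-value, is listed only under 0.05. The deposited footprint score is a constant, 0.01, so only positions were used.

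Starts came from GENCODE vM21, and the main start from the RefSeq curated mRNA of lowest accession on GRCm38.p6, with the GENCODE principal transcript where there was none. Sequences were read from that genome, and the 66 RefSeq promoters matched to 56 members were identical to it. Percentiles rank all peaks of a library. Counts and medians are set beside those of all genes. No test was run, as there is 1 group. Functions were tested on simulated data, with Python 3.11.15, pandas 2.3.3 and scipy 1.17.1. Named genes are those without a promoter peak, the 8 highest and 8 lowest, the extreme 4 excess ratios in each direction, the 5 with most footprints, the X-linked genes, the stalk, disease and other-name lists, and the highest 2 of other lists; a few of these are not reported here. The members, lists and words were chosen with earlier results of these data known.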

Additional observations from a re-analysis of the deposited data

How the results depend on the processing

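The counts of ribosomal genes with a promoter peak in both libraries stayed at 76 with the shorter peak list, with 2500 bases around a start, with the upper 50% of peaks and with basic transcripts. The count was 75 with 250 bases around a start, where Rpl35 was lost, and 60 for a peak over the main start, an alternative chosen after seeing the data. Leaving out either replicate gave 76 to 76, and likewise 76 to 76 for footprints. The footprint count was 75 for footprints wholly inside the peak and 75 within 100 bases of a start. The median value ranged from 7.97 to 9.63 in replicate 1 and from 5.50 to 5.63 in replicate 2. The sum of the widths of all promoter peaks of a gene gave a median width of 280 bases in replicate 1 and 300 in replicate 2, against 220 and 260 for the highest peak alone, since it adds further peaks. The median excess ratio ranged from 0.17 to 0.20. No paired analysis was possible because there is 1 group. A control genotype was not analysed here, normalisation between libraries is unknown, and the depth behind the values rests on the assumed step.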
